A study of Rattus norvegicus with 24 samples.

Results

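Delayed estradiol treatment after ovariectomy was compared with ovariectomy and vehicle in the rat hippocampus by RNA sequencing of bulk tissue. The 12 libraries were chosen by their group labels from the 24 of the series. They were 5 of ovariectomised females given vehicle for 3 weeks and then estradiol (E2) for 2 weeks, called Treatment here (replicates 1, 2, 5, 6 and 7). The other 7 came from ovariectomised females given vehicle for 7 weeks, called OVX. All were aged 6 months at surgery, and all 12 had lost their ovaries. SHAM females (7 libraries) kept their ovaries and had vehicle for 7 weeks, and Prevention females (5 libraries) were ovariectomised and given estradiol for 5 weeks. Both groups are used below to place a level. They are also part of the main fit of all 24 libraries, so the standard errors and p-values below draw on their spread too. By the labels the animals of the Treatment group were treated for 5 weeks in all and those of the OVX group for 7, so estradiol and the length of the experiment cannot be told apart. The sources used here do not give the strain, the dose and route of estradiol, or the time from surgery to tissue collection. The labels do not state that each library came from a separate animal, so p-values measure the spread between these libraries.

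Estradiol is the main ovarian estrogen. It enters cells and binds the receptors encoded by Esr1 and Esr2, transcription factors that bind estrogen response elements in DNA, and in the hippocampus it is known for effects on dendritic spines, metabolism and glia. The glucocorticoid receptor, encoded by Nr3c1, belongs to the same family of nuclear receptors, binds its own response elements, and is abundant in hippocampal neurons and glia. Estradiol is also known to act on the hypothalamus and pituitary, through which it alters the secretion of adrenal corticosterone and of prolactin.

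Normalised counts summed to between 35.6 and 37.4 M (mega) in Treatment libraries and between 35.4 and 37.0 M in OVX libraries. Reads estimated from the value of 1 read ran from 31.8 to 47.7 M and from 29.4 to 36.2 M. Any 2 of the 12 libraries correlated across genes at 0.972 to 0.991. Treatment replicates 1 and 2 stood apart: with the deepest 2 of these estimates, 40.0 and 47.7 M, they also had far more of the transcript LOC257642 (log2 levels of 19.5 and 16.8) than the other 10 libraries (14.0 to 15.2). All 5 Prevention libraries had a high level too (up to 19.7), and all SHAM libraries a low one. List counts, and changes of single genes that moved by over 1.5 times, are therefore also given for Treatment replicates 5, 6 and 7 against OVX. In 13 of the 35 gene lists the median change had another sign there. Markers of dentate granule cells summed to 22796 to 29110 normalised counts in Treatment libraries and 20680 to 28481 in OVX libraries, and those of CA pyramidal cells to 50874 to 76168 and 51782 to 75208. No defining marker of these hippocampal cells was at 0 in all 12 libraries. Markers of neighbouring tissue were present too: choroid plexus markers summed to 4933 to 110820 in Treatment and 5350 to 112273 in OVX libraries, and thalamic markers to 17378 to 37562 and 17038 to 38138. In bulk tissue, fewer cells of a type and less RNA per cell cannot be told apart.

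Values below are normalised counts per library, given for Treatment replicates in the order 1, 2, 5, 6 and 7, and for OVX libraries as the lowest, the highest and the median. Changes are Treatment minus OVX on the scale log2(normalised count + 1), which understates changes of low genes, with the standard error (SE) and p from limma, adjusted by the Benjamini-Hochberg method over all 16119 genes tested. No gene passed an adjusted p of 0.05 (0 of 16119), and the smallest adjusted p was 0.258, for Pdk4. At an unadjusted p under 0.05 there were 1159 genes, 7.19% of those tested, 661 higher (4.1%) and 498 lower (3.09%) in Treatment libraries. In 26 genes (0.161%) every Treatment library lay above every OVX library, and in 22 (0.136%) every one lay below. Against OVX and SHAM libraries together, 6 genes had every Treatment library above (0.0372%), namely Pdk4, Sgk1, Ddit4, Per1, Fdft1 and Tmem252, and 3 had every one below (0.0186%), namely Sirt7, Map3k12 and Farp2. With Treatment replicates 5, 6 and 7 alone, 0 genes passed limma (smallest adjusted p 0.180), 533 (3.31%) had an unadjusted p under 0.05, 238 higher (1.48%) and 295 lower (1.83%), and 86 (0.534%) and 106 (0.658%) had groups apart above and below. List counts below are to be read beside these shares of all genes.

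Genes that respond to glucocorticoids in many tissues were mostly higher in Treatment libraries. Of its 30 genes, 29 had a positive change, against 49.4% of all genes tested, and 1 a negative one, against 50.6%, and the median change was 0.19 against -0.0016 over all genes. An unadjusted p under 0.05 was reached by 12 members in the higher direction and by 0 in the lower, where 4.1% and 3.09% of all genes did so. For 5 members (16.7%, against 0.161% of all genes), Pdk4, Sgk1, Ddit4, Per1 and Sult1a1, every Treatment library was above every OVX library. The mean log2 level over the list was 10.29 to 10.47 in Treatment libraries and 9.99 to 10.26 in OVX libraries, without overlap. In SHAM libraries it was 9.88 to 10.21, and in Prevention libraries 10.07 to 10.34. With Treatment replicates 5, 6 and 7 alone, 25 of 30 were higher (51.8% of all genes), with a median of 0.16. At an unadjusted p under 0.05 there were 10, all higher (1.48% of all genes). The list was drawn up with earlier results of these data known, so its direction is a description.

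Pdk4 encodes a kinase that switches off the pyruvate dehydrogenase complex and so holds back the entry of glucose carbon into the citric acid cycle. Its level in Treatment replicates 1, 2, 5, 6 and 7 was 369, 294, 365, 508 and 614. OVX libraries ran from 121 to 273 (median 163). All 5 Treatment libraries were above all OVX libraries, and the 2 highest OVX values, in replicates 4 and 5, lay closest to Treatment replicate 2. The group means were 430.0 ± 129 (SD, n = 5) and 178 ± 52.5 (SD, n = 7), with 129 ± 33.7 in SHAM (SD, n = 7). The change was 1.26 (SE 0.23), with a limma Benjamini-Hochberg adjusted p of 0.258, and 1.49 with Treatment replicates 5, 6 and 7. Without OVX replicate 4, its highest OVX library, the change was 1.37 and the adjusted p 0.0770, the smallest over all alternatives. Prevention libraries spanned 146 to 345 (median 282), across the OVX and the Treatment ranges.

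Sgk1 encodes a kinase downstream of phosphoinositide 3-kinase that regulates ion channels and transporters and is a classic target of corticosteroid receptors. Treatment replicates 1, 2, 5, 6 and 7 had 5774, 6892, 6344, 7745 and 10355, and OVX libraries 3195 to 5497 (median 4285). Again the groups did not overlap, with Treatment replicate 1 nearest to OVX replicate 3 and replicate 7 the highest. The change was 0.84 (SE 0.19) and 0.98 with Treatment replicates 5, 6 and 7, at a limma Benjamini-Hochberg adjusted p of 0.317 for all 5. Sult1a1, a sulfotransferase that conjugates phenols, including catechols and estrogens, had 575, 603, 595, 654 and 596, against 390.3 to 548 (median 445) in OVX libraries. These 5 values lay close together above the OVX range, while SHAM libraries reached 612 and overlapped them. Its change was 0.43 (SE 0.10).

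Ddit4 encodes an inhibitor of mTORC1 induced by stress hormones and low oxygen. Its levels were 3315, 3653, 3672, 3808 and 3837 in Treatment libraries and 2023 to 3227 (median 2661) in OVX libraries. The lowest Treatment library, replicate 1, was just above the highest OVX library, replicate 4. Per1, a repressor of the circadian clock that also carries glucocorticoid and activity signals, had 4471, 4001, 4167, 4050.3 and 4047 against 2702 to 3987 (median 2929.5). Here the margin was narrow, since OVX replicate 2 lay close under Treatment replicate 2, while all SHAM libraries were at or under 3099. The changes were 0.49 (SE 0.12) for Ddit4 and 0.40 (SE 0.12) for Per1.

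**Figure D1:**
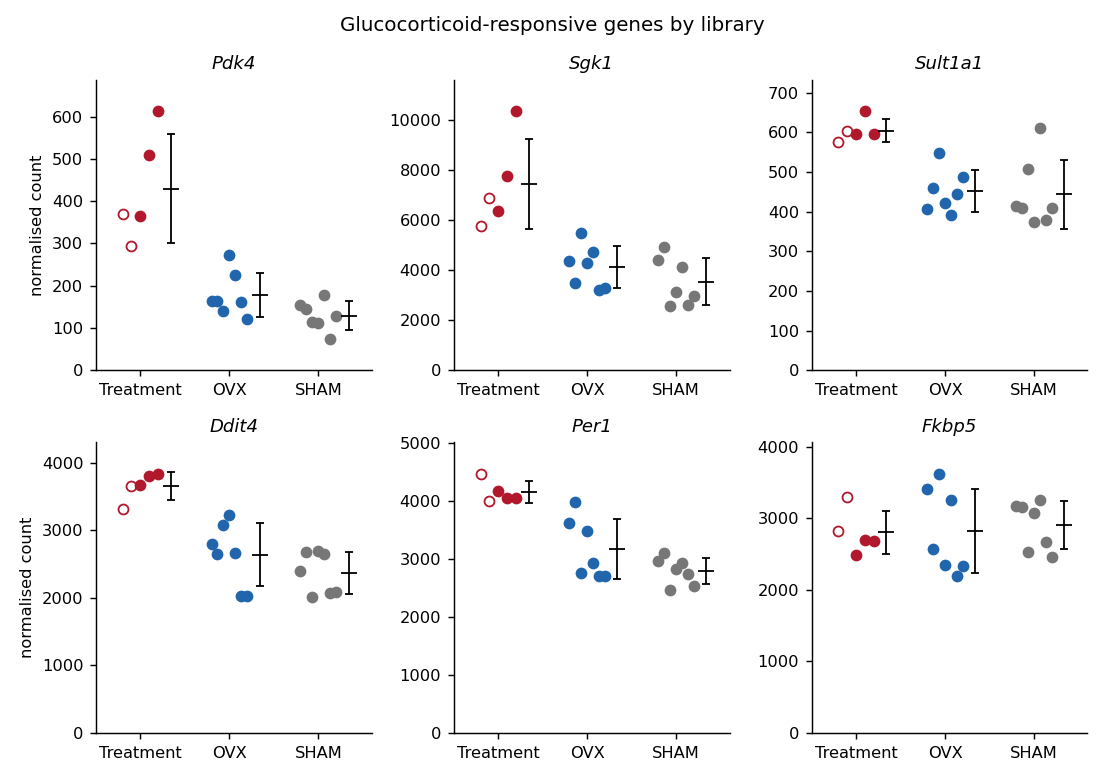
Normalised counts (y axis, from 0) of 6 glucocorticoid-responsive genes in each Treatment, OVX and SHAM library (points), with open circles for Treatment replicates 1 and 2 and black bars for the mean ± SD. For Pdk4, Sgk1, Sult1a1, Ddit4 and Per1 every Treatment point lies above every OVX point, and for Fkbp5 the groups overlap throughout.

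Other members of the list had overlapping groups. Errfi1, a feedback inhibitor of the EGF receptor, had 1645, 1907, 1921, 1987 and 2149 against 1351 to 1716 (median 1512), so that 4 of 5 Treatment libraries were above the OVX range and replicate 1 was within it (change 0.31, SE 0.07). Nfkbia, the inhibitor that holds NF-kappaB in the cytoplasm, had 934, 1257, 1401, 1149 and 1531 against 695 to 1152 (median 849), with 3 Treatment libraries above the OVX range (change 0.54, SE 0.16). Plin4, a lipid droplet coat protein, had a change of 0.36 (SE 0.12), and 0.23 with replicates 5, 6 and 7, with 1 Treatment library above the range. Klf9, a zinc finger factor induced by corticosteroids and thyroid hormone, had 5206, 5622, 4622, 5025 and 5408 against 4049 to 5283 (median 4495), and its change was 0.16 (SE 0.06).

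The best known hippocampal readouts of the receptor did not stand apart. Fkbp5, a co-chaperone that lowers the affinity of the glucocorticoid receptor for its hormone, had 2829, 3302, 2496, 2705 and 2686 in Treatment libraries. OVX libraries spanned 2197 to 3628 (median 2578), a range that held all 5. Its change was 0.01 (SE 0.13) and -0.08 with Treatment replicates 5, 6 and 7. Tsc22d3, also called GILZ, an anti-inflammatory leucine zipper protein, had 3729, 3944, 3095, 3191 and 3255 against 2148 to 3437 (median 3141). Only replicates 1 and 2 were above the OVX range, and its change of 0.24 (SE 0.13) was 0.13 without them.

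**Figure D2:**
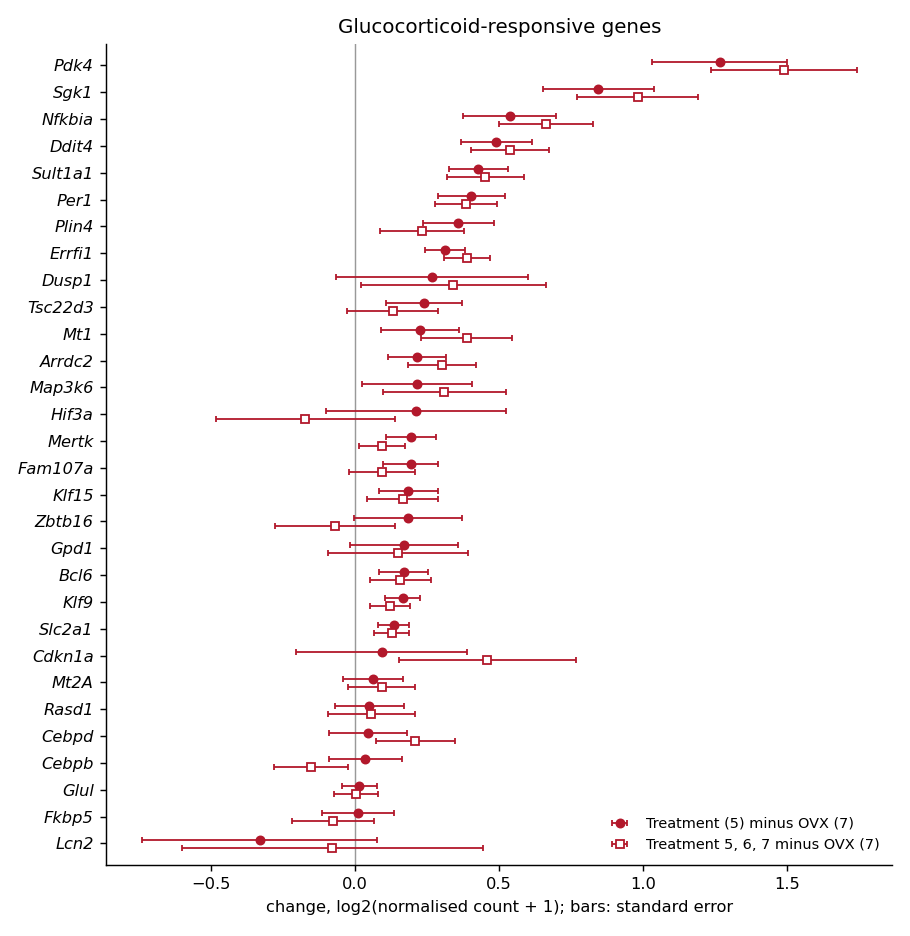
Change in log2(normalised count + 1) for the 30 glucocorticoid-responsive genes (x axis), ordered by size, for all 5 Treatment libraries against OVX (filled circles) and for Treatment replicates 5, 6 and 7 against OVX (open squares), with bars for the SE. With all 5 libraries 29 genes lie above 0, from Pdk4 at 1.26 downward, and Lcn2 lies below.

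Receptors and enzymes that set the glucocorticoid signal were also listed, 13 genes in all. Of these, 9 had a positive change, 0 had an unadjusted p under 0.05 in either direction, and the median was 0.04. Over replicates 5, 6 and 7 these values were 8, 0 and 0.04. Nr3c1, the glucocorticoid receptor, had 4109.6, 3397, 3554, 3459 and 3699.7 against 2618 to 3942 (median 3615), and Nr3c2, the mineralocorticoid receptor, had 2176, 2954, 2292, 2133 and 2973 against 1641 to 2520.1 (median 2392). For both genes the groups overlapped, with changes of 0.13 (SE 0.09) and 0.15 (SE 0.14). Hsd11b1, which regenerates active corticosterone inside cells, had 4478, 3967, 4169.8, 3184 and 3369.7 against 2832 to 3790.4 (median 3362). Replicates 1, 2 and 5 were above its OVX range and replicates 6 and 7 were within it (change 0.17, SE 0.08, and 0.07 with replicates 5, 6 and 7).

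Promoter windows were searched for the letters both receptors are known to bind. Each window, from RefSeq on the build GRCr8, runs from 250 bases before a gene's start to 50 after it, 300 bases in all. The searches, on both strands, were AGAACA, 1 arm of the glucocorticoid element, GGTCA, 1 arm of the estrogen element, and the whole elements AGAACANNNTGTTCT and GGTCANNNTGACC, each an arm, any 3 bases and its reverse complement, so that a whole element also holds the arm. Of 33469 windows, 20.7% held AGAACA, 40.5% held GGTCA, 0.0149% held the whole glucocorticoid element and 0.0269% the whole estrogen element. Of the 30 glucocorticoid-responsive genes 27 matched, with 37 windows. AGAACA was in 3 of these (8.11%), GGTCA in 9 (24.3%), and either whole element in 0. Windows are shown for Pdk4, Sult1a1 and Tmem252, genes with 1 start in the table, Treatment libraries apart from OVX and a match to an arm. Capitals mark the arm: in Pdk4 GGTCA as its reverse complement at bases 53 to 57, in Sult1a1 AGAACA as written at 162 to 167, and in Tmem252 GGTCA as its reverse complement at 219 to 223 and as written at 275 to 279, counted from the 5′ end.
Pdk4, chr4:34568280-34568579, minus strand: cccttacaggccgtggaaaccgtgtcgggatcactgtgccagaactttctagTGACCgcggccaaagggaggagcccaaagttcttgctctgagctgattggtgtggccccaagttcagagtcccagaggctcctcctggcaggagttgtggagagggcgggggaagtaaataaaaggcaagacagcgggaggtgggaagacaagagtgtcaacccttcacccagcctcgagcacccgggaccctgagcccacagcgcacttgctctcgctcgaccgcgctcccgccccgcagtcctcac
Sult1a1, chr1:190706063-190706362, minus strand: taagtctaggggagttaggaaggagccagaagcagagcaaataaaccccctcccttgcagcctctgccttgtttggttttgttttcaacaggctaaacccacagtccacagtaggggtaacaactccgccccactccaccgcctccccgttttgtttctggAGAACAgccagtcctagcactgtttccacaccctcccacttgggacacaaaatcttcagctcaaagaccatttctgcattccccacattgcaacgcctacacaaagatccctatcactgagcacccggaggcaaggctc
Tmem252, chr1:231743146-231743445, plus strand: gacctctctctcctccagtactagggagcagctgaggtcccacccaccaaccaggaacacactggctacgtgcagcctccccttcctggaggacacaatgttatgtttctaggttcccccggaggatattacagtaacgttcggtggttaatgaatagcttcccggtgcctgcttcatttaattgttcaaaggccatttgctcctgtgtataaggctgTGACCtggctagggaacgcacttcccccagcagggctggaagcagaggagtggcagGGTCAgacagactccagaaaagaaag
A match describes the letters of these windows and shows no binding.

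Pdk4 acts on the pyruvate dehydrogenase complex, and the genes of that complex and its regulators, Pdk4 among them, were measured as a list. Of 14 genes 10 had a positive change, 2 had an unadjusted p under 0.05, both higher, and the median was 0.04. Without Treatment replicates 1 and 2 these values were 11, 2 and 0.05. With all 5 libraries the 2 genes at that p were 14.3% of the list, against 4.1% of all genes. The gene beside Pdk4 was Pdp2, a phosphatase that reverses the action of the kinases, with 376, 319, 326, 352 and 339 against 259 to 363 (median 279) in OVX libraries. Its groups overlapped through OVX replicate 6, and the change was 0.23 (SE 0.08). Fatty acid oxidation and ketone genes were higher for 13 of 24, with a median of 0.03. At an unadjusted p under 0.05 there was 1 higher gene (4.17%, near the 4.1% of all genes). In replicates 5, 6 and 7 it was 19 of 24 and 0.04, with 2 genes at that p. With all 5 libraries that gene was Ppargc1a, a coactivator of mitochondrial gene programmes, with 914, 798, 885, 851 and 858 against 531 to 945 (median 759) and a change of 0.26 (SE 0.09). No Treatment library was above its OVX range, which reached higher through replicate 4. Genes linked to insulin signalling and FOXO factors were higher for 16 of 23, with a median of 0.07. At an unadjusted p under 0.05 there were 2 (8.7%, against 4.1% of all genes), both higher. They were Igf1r, a growth factor receptor, and Gsk3b, a kinase restrained by insulin. With replicates 5, 6 and 7, 17 were higher, with a median of 0.06 and 0 at that p.

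Some cholesterol genes also had higher values, among them enzymes of synthesis, 1 regulator and 1 transporter. Of 31 genes tested, 22 had a positive change, with a median of 0.03. At an unadjusted p under 0.05 there were 7 higher, among them Hmgcs1, Idi1, Fdft1, Sqle, Insig1 and Abca1, and 1 lower, Tm7sf2. These were 22.6% and 3.23% of the list, against 4.1% and 3.09% of all genes. Only Fdft1 had groups apart, and the same count was 2, with Insig1, for Treatment replicates 5, 6 and 7, for which 23 were higher with a median of 0.07, 6 higher and 1 lower at that p. Mean log2 levels over the whole list overlapped, 11.34 to 11.47 in Treatment and 11.30 to 11.43 in OVX libraries.

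Fdft1, squalene synthase, makes squalene, the precursor committed to sterols. Treatment replicates 1, 2, 5, 6 and 7 had 3339.8, 3636, 3652, 3588 and 3746, and OVX libraries 2982 to 3324 (median 3110.3). Replicate 1 was just above OVX replicate 5 and the other 4 were well above. The change was 0.20 (SE 0.04) at a limma Benjamini-Hochberg adjusted p of 0.317, and 0.23 with replicates 5, 6 and 7.

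Other enzymes of the pathway had overlapping groups. Hmgcs1, the synthase of an early step, had a change of 0.15 (SE 0.05) with 3 Treatment libraries above the OVX range. Idi1, the isomerase of the isoprenoid steps, had 0.21 (SE 0.06) with 3 above, and Sqle, squalene epoxidase, 0.12 (SE 0.06) with 2 above. Tm7sf2, a sterol reductase later in the pathway, had 759, 771, 745, 742 and 723 against 732 to 937 (median 828), a change of -0.14 (SE 0.06). Its Treatment libraries lay in the lower part of the OVX range or under it, with 1 below.

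Genes that sense or move cholesterol were measured beside the enzymes. Insig1, which retains the SREBP transcription factors in the endoplasmic reticulum when sterols are plentiful and is itself an SREBP target, had 3004, 3300.2, 3448, 3127 and 3153 against 2345 to 3095 (median 2626) (change 0.24, SE 0.08). Replicate 1 alone lay within the OVX range. Abca1, the transporter that loads cholesterol onto apolipoproteins, had 3944, 3415, 3110.3, 3565 and 3032 against 2008 to 3372 (median 2825) (change 0.27, SE 0.09, and 0.20 with replicates 5, 6 and 7). Of its Treatment libraries 3 were above the OVX range. Stard4, a carrier of cholesterol between membranes and outside the list, had 662, 634, 690.1, 674 and 647 against 423 to 592 (median 525.9). Its groups did not overlap, and the change was 0.34 (SE 0.09).

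**Figure D3:**
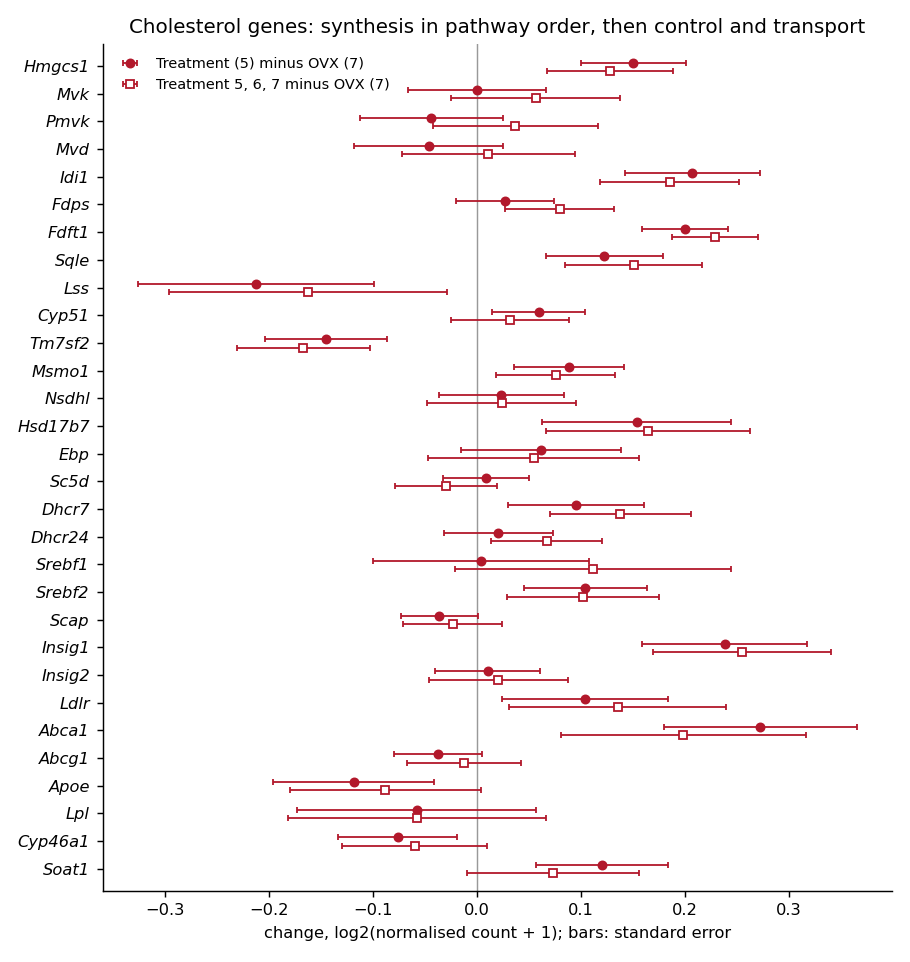
Change in log2(normalised count + 1) (x axis) for tested cholesterol genes, with synthesis in pathway order from the top and then control and transport, for all 5 Treatment libraries against OVX (filled circles) and for replicates 5, 6 and 7 (open squares), with bars for the SE. Fdft1 lies at 0.20 and Insig1 at 0.24, and Tm7sf2 at -0.14 lies below 0 in both.

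Estrogen's own receptors and target genes were examined next. Of 24 genes for estrogen receptors and steroid enzymes 11 had a positive change, with a median of -0.01. At an unadjusted p under 0.05 there were 2 (8.33%, against 3.09% of all genes), both lower. Over replicates 5, 6 and 7 the direction turned, with 15 of 24 positive, a median of 0.03 and 0 at that p. Esr1, the alpha receptor, had 99.6, 83.8, 75.1, 137 and 29.5 against 58.0 to 161 (median 96.8), and Esr2, the beta receptor, 35.8, 20.6, 24.4, 43.0 and 20.0 against 10.6 to 32.7 (median 18.9). Both were low, and their groups overlapped (changes -0.30, SE 0.33, and 0.43, SE 0.27). Without Treatment replicate 7, the lowest library for Esr1, its change was 0.0365, and with replicates 5, 6 and 7 it was -0.47. Gper1, a membrane receptor for estradiol, and Pgr, the progesterone receptor and a classic estrogen target, had changes of -0.03 (SE 0.15; 0.06 with those 3) and 0.07 (SE 0.12), with all Treatment libraries inside the OVX range for both. Hsd17b8, an enzyme that can inactivate estradiol, had 563, 700.4, 738, 809.6 and 653 against 678 to 934 (median 772) (change -0.19, SE 0.08), with replicates 1 and 7 below the range and a change of -0.11 with replicates 5, 6 and 7.

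Among estrogen-responsive genes 17 of 29 were higher, with a median of 0.07. At an unadjusted p under 0.05 there were 4 (13.8%, against 4.1% of all genes), all higher. Without Treatment replicates 1 and 2, 18 were higher, with a median of 0.06, and at that p 1 was higher and 1 lower. The 4 included Fhl2, a LIM domain cofactor of nuclear receptors, with 714, 699.5, 794, 594 and 930.4 against 444 to 681 (median 585). In 4 of 5 Treatment libraries it was above the OVX range, and the change was 0.35 (SE 0.13). Bdnf, the neurotrophin of activity-dependent plasticity, had 1194, 1459, 1566, 1077 and 1212 against 765 to 1302 (median 1099.8) (change 0.28, SE 0.12), and Vegfa, the endothelial growth factor, a change of 0.15 (SE 0.07). Both overlapped, with 2 Treatment libraries above the range in each. Outside the list, Prlhr, the receptor of prolactin-releasing peptide, had 96.7, 115, 63.8, 112 and 87.8 against 34.6 to 96.7 (median 47.6), a change of 0.84 (SE 0.24), and 2 libraries above the range, set by OVX replicate 2.

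Immediate early genes, induced within minutes by neuronal activity or handling, were higher for 27 of 33, with a median of 0.22. At an unadjusted p under 0.05 there were 9 (27.3%, against 4.1% of all genes), all higher. The mean log2 level over the list was 9.73 to 10.16 in Treatment and 9.62 to 9.94 in OVX libraries, and its highest 2 values were in Treatment replicates 1 and 2. With replicates 5, 6 and 7 alone 21 were higher, the median was 0.11 and 4 had an unadjusted p under 0.05, all higher (1.48% of all genes). Per1 is a member of this list too. Egr2, a zinc finger factor, had 328, 254, 169.9, 112 and 198 against 64.0 to 186 (median 86.6). Replicates 1 and 2 were its 2 highest values, and the change of 0.93 (SE 0.33) was 0.57 without them. Maff, a small bZIP factor, had 66.2, 85.3, 76.2, 77.9 and 58.1 against 26.6 to 66.4 (median 46.6) (change 0.76, SE 0.22). Gadd45b, a stress-induced regulator of DNA demethylation and MAP kinases, had 522, 652, 629, 633 and 600.2 against 443 to 565 (median 492) (change 0.28, SE 0.09), with replicate 1 alone within the OVX range. Klf10, a factor induced by TGF-beta, had 3 of 5 Treatment libraries above the OVX range (change 0.38, SE 0.13).

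Clock genes were higher for 19 of 21, with a median of 0.12. At an unadjusted p under 0.05 there were 2 (9.52%, against 4.1% of all genes), both higher. Over replicates 5, 6 and 7 it was 17 of 21 and 0.08, with 2 higher and 2 lower at that p. With all 5 libraries these were Per1 and Arntl, whose proteins act on opposite sides of the loop, Arntl as an activator. Arntl had 1109, 1088, 1076, 1011 and 1239 against 832 to 1096 (median 980.2), overlapping, with a change of 0.17 (SE 0.07). The labels give no time of day of tissue collection, and its part in these values was not tested.

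Synaptic genes were higher for 21 of 31 in the glutamatergic list, with a median of 0.06 and 1 at an unadjusted p under 0.05, and for 18 of 23 in the GABAergic list, with a median of 0.06 and 4. Without Treatment replicates 1 and 2 these values were 19 of 31, 0.04 and 0, and 18 of 23, 0.13 and 1. With all 5 libraries the counts at that p were 3.23% and 17.4% of the lists, all higher, against 4.1% of all genes. The glutamatergic gene was Grin2b, an NMDA receptor subunit, with 4272, 2771, 2704, 2188 and 2739 against 1664 to 2755 (median 2204). Replicate 1 alone stood far above, and the change of 0.36 (SE 0.17) was 0.18 with replicates 5, 6 and 7. Gabrb2, a GABA-A receptor subunit, had a change of 0.29 (SE 0.14) with 1 library above the range. Nuclear genes of oxidative phosphorylation were higher for 5 of 56 (median -0.06) and cytosolic ribosomal proteins for 4 of 46 (median -0.05), each with 2 genes lower at an unadjusted p under 0.05. With replicates 5, 6 and 7 the counts were 34 of 56 and 29 of 46, with medians of 0.01 and 0.02 and 0 at that p in either list. With all 5 libraries the 2 lower genes were 3.57% and 4.35% of the lists, near the 3.09% of all genes.

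**Figure D4:**
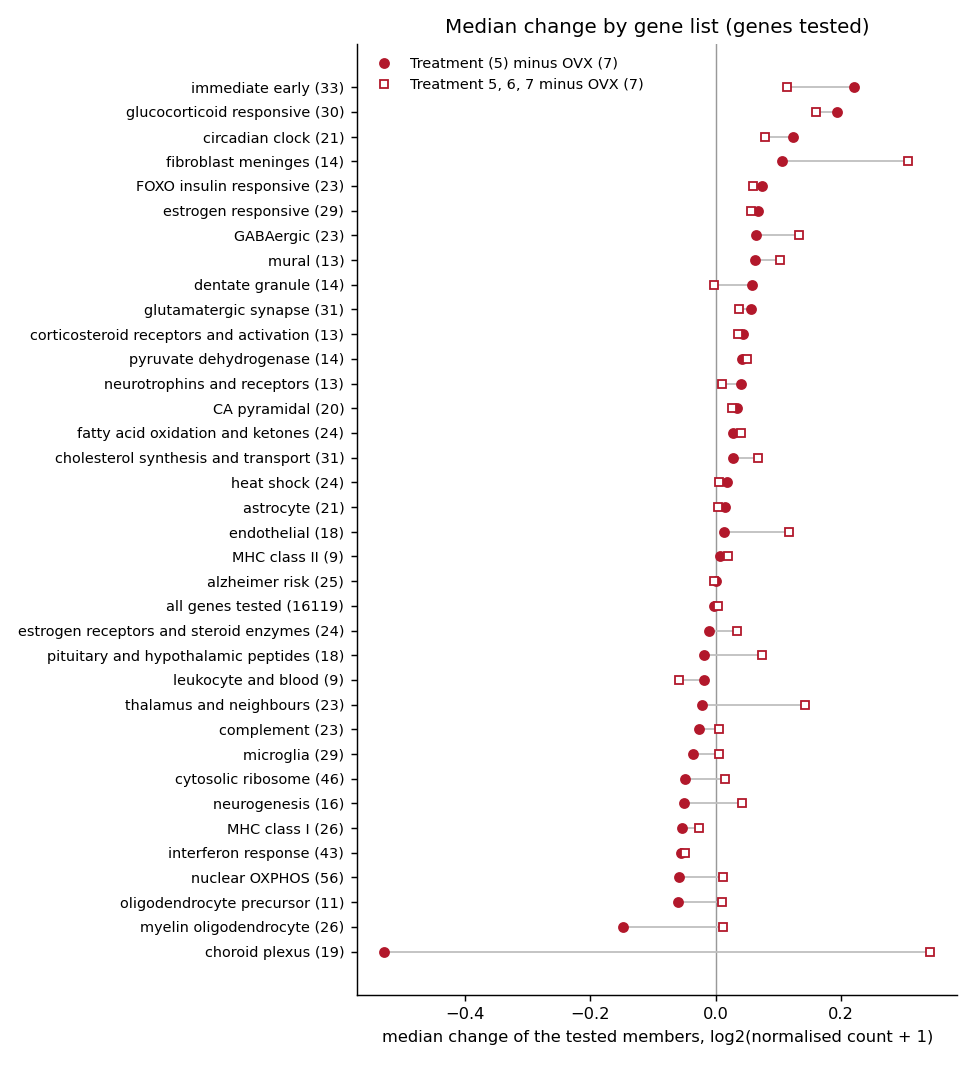
Median change in log2(normalised count + 1) (x axis) of the tested members of 35 gene lists and of all genes, with the number tested in brackets, for all 5 Treatment libraries against OVX (filled circles) and for replicates 5, 6 and 7 (open squares), joined by grey lines. The glucocorticoid list lies at 0.19 and 0.16, while choroid plexus goes from -0.53 to 0.34.

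Microglial genes were split in direction. At an unadjusted p under 0.05 there were 4 (13.8%, against 3.09% of all genes), all lower: Itgam, Grn, Cd68 and Irf8. Of 29 genes 11 were higher, with a median of -0.04. Over replicates 5, 6 and 7, 15 were higher, with a median of 0.01, and at that p 1 was higher and 3 lower. The higher one was Ctss, with a change of 0.12 there and 0.06 with all 5 libraries. Aif1, another member, had a change of 0.02 (SE 0.09), and 0.11 with replicates 5, 6 and 7. Summed microglial markers were 136898 to 170039 in Treatment and 145075 to 179281 in OVX libraries. Cd68, a lysosomal glycoprotein of phagocytes, had 59.5, 43.4, 58.5, 56.7 and 49.0 against 60.0 to 79.9 (median 71.0). All 5 were below all OVX libraries, though replicate 1 was so by under 1 normalised count, and the change was -0.40 (SE 0.14, limma Benjamini-Hochberg adjusted p of 0.619). Prevention libraries reached 55.8 and SHAM libraries had 45.2 to 78.8 (median 59.4).

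Itgam, the alpha chain of complement receptor 3, had 436, 441, 743, 634 and 564 against 633 to 973 (median 753). Replicates 1 and 2 were far below the range, replicate 7 was also below and replicate 5 was well inside it, so that the change of -0.48 (SE 0.13) was -0.26 without the first 2. Grn, progranulin, a lysosomal and growth factor protein, had 1981, 2020.0, 2228, 2037 and 1937 against 2219.7 to 2423 (median 2313), with 4 of 5 below the range (change -0.18, SE 0.05). Irf8, a transcription factor needed for microglia, had 302, 288, 294, 285 and 259 against 296 to 457 (median 336), also with 4 of 5 below (change -0.29, SE 0.10, and -0.32 with replicates 5, 6 and 7).

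In the complement list 9 of 23 were higher, with a median of -0.03. At an unadjusted p under 0.05 there were 2 lower (8.7%, against 3.09% of all genes), Itgam, a member of both lists, and C3. Without Treatment replicates 1 and 2 the direction turned, with 13 of 23 higher, a median of 0.01 and 0 at that p. C3, the central complement protein, had 1389, 1114, 1443, 1489 and 1509.9 against 1262 to 2361 (median 1831) (change -0.36, SE 0.16). All 5 were under the OVX median, but OVX replicate 4 was lower than 4 of them. Interferon response genes were higher for 16 of 43, with a median of -0.06 and 0 at an unadjusted p under 0.05, and for 16 with -0.05 and 0 in replicates 5, 6 and 7. Class I MHC genes were higher for 9 of 26 with 1 lower at that p, RT1-T24-4 (change -0.24, SE 0.10), an uncertain value since reads can be shared among near-identical RT1 genes. With those replicates it was 10 of 26, with 1 lower. RT1-A2, also an RT1 gene, had the highest change of the class I list, 1.18 (SE 0.66), and 1.38 with those replicates. Its groups overlapped. Class II genes were higher for 5 of 9, with 0 at that p, and for 7 of 9 with 1 higher in those replicates. Cd4, found on helper T cells and on rat macrophages, had 151, 124, 179.5, 221 and 155 against 174 to 311 (median 244) (change -0.57, SE 0.21), with 3 of 5 below the OVX range. In its list, of leukocytes and blood, 4 of 9 genes were higher and 5 lower, with a median of -0.02. Cd4 was the only 1 at an unadjusted p under 0.05 (11.1%, against 3.09% of all genes). With replicates 5, 6 and 7 it was 4 of 9 and -0.06, with 0 at that p.

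**Figure D5:**
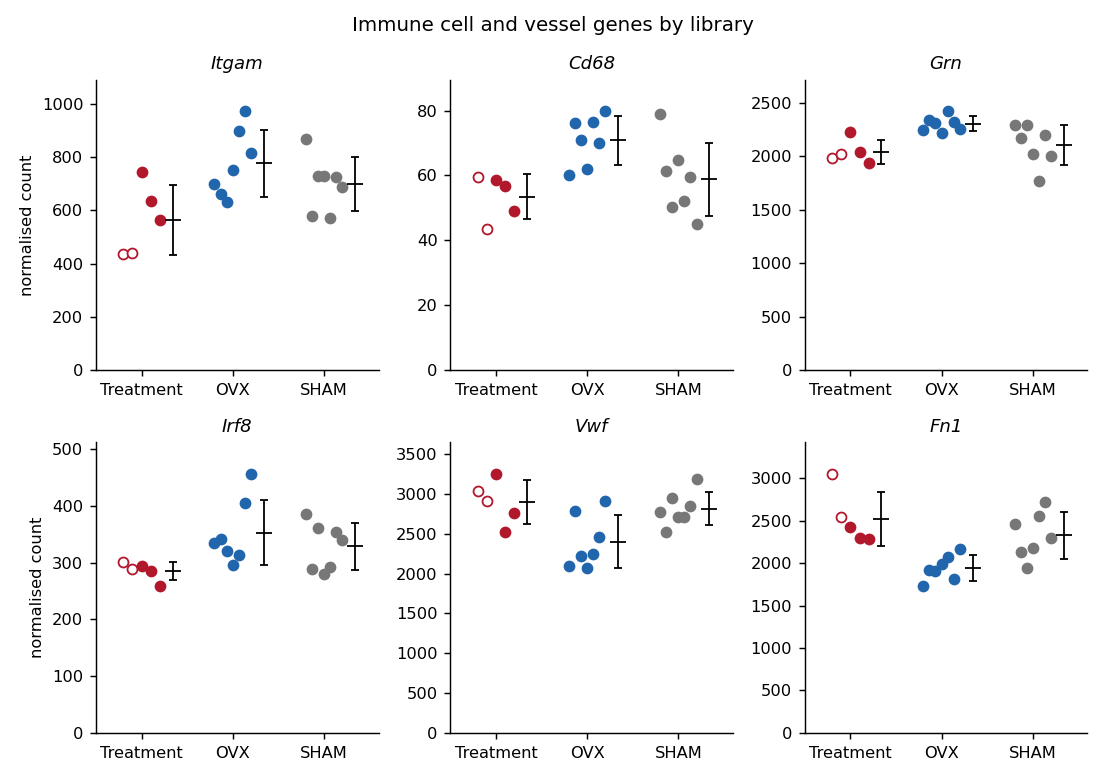
Normalised counts (y axis, from 0) of 4 immune cell genes, 1 endothelial gene and Fn1 in each Treatment, OVX and SHAM library (points), with open circles for Treatment replicates 1 and 2 and black bars for the mean ± SD. Cd68 is lower and Fn1 higher in all 5 Treatment libraries than in all 7 OVX libraries, and for Itgam the open circles are the lowest.

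Some vessel genes had higher values in Treatment libraries. In the endothelial list 9 of 18 were higher, with a median of 0.01. At an unadjusted p under 0.05 there were 4 (22.2%, against 4.1% of all genes), all higher: Vwf, Flt1, Slc2a1 and Mfsd2a. With replicates 5, 6 and 7 these counts were 16 of 18, 0.12 and 2. Summed endothelial markers, 44125 to 48562 in Treatment and 43408 to 49434 in OVX libraries, overlapped. Vwf, von Willebrand factor, had 3042, 2912, 3255, 2521 and 2756 against 2074 to 2907 (median 2239.8) (change 0.28, SE 0.08), with 3 libraries above the range. Slc2a1, the glucose transporter of the blood-brain barrier and a member of the glucocorticoid list, had 5541, 5617, 5317, 5710.3 and 5516 against 4485 to 5434 (median 5169), with only replicate 5 inside the OVX range (change 0.13, SE 0.05). Mfsd2a, the barrier's carrier of docosahexaenoic acid, and Flt1, a VEGF receptor, had changes of 0.16 (SE 0.08) and 0.18 (SE 0.07). Abcc9, a potassium channel subunit of pericytes, had a change of 0.24 (SE 0.10). In its list, of mural cells, 8 of 13 genes were higher and 5 lower, with a median of 0.06. Abcc9 was the only 1 at an unadjusted p under 0.05 (7.69%, against 4.1% of all genes). With replicates 5, 6 and 7 it was 12 of 13 and 0.10, with 1 higher at that p. Summed mural markers, 7113 to 10132 in Treatment and 6649 to 9670 in OVX libraries, overlapped.

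Fn1, fibronectin, a matrix protein listed here with fibroblasts and meninges, had 3057, 2549, 2423, 2299 and 2287 against 1732 to 2167 (median 1917). Its groups were apart, with replicate 1 the highest, and the change of 0.37 (SE 0.09) was 0.27 with replicates 5, 6 and 7. Summed fibroblast and meningeal markers, 8359 to 17559 in Treatment and 7620 to 17053 in OVX libraries, overlapped. Of that list 10 of 14 were higher, with a median of 0.11, and 13 with a median of 0.31 for replicates 5, 6 and 7. The part of meningeal tissue in the Fn1 values was not tested.

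Oligodendrocyte levels overlapped between the groups. In the myelin list 3 of 26 were higher, with a median of -0.15. At an unadjusted p under 0.05 there were 3 lower (11.5%, against 3.09% of all genes). But with replicates 5, 6 and 7 it was 14 of 26 and 0.01 with 1 lower. The mean log2 level over the list was 11.67 to 12.18 in Treatment and 11.78 to 12.49 in OVX libraries. Enpp6, a choline phosphodiesterase of newly formed oligodendrocytes, had 272, 342, 285, 236 and 359 against 292 to 521 (median 382) (change -0.40, SE 0.15, and -0.43 with those 3). Gal3st1, which makes the myelin lipid sulfatide, had 271, 270.2, 246, 422 and 269 against 306 to 460.0 (median 337), with 4 of 5 below the range and replicate 6 near its top (change -0.30, SE 0.12). In the precursor list 5 of 11 were higher, with a median of -0.06. At an unadjusted p under 0.05 there was 1 lower (9.09%, against 3.09% of all genes). With replicates 5, 6 and 7 it was 7 of 11 and 0.01, also with 1 lower. That gene was C1ql1, a secreted protein of precursors, with 425, 620.5, 578, 601 and 489 against 604 to 736 (median 654), with 4 of 5 below (change -0.31, SE 0.10).

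Astrocyte genes were higher for 15 of 21, with a median of 0.01. At an unadjusted p under 0.05 there were 2 higher and 1 lower (9.52% and 4.76%, against 4.1% and 3.09% of all genes). Over replicates 5, 6 and 7 it was 12 of 21 and 0.00, with 0 at that p. Slc4a4, a sodium bicarbonate cotransporter, had 4420.0, 3821, 3556, 4458 and 3065 against 2244 to 4007 (median 3294) (change 0.24, SE 0.11, and 0.17 with replicates 5, 6 and 7). Slc1a3, the glutamate transporter GLAST, had 37360.4, 34713, 32793, 30266 and 31655 against 27131 to 34020.1 (median 29821) (change 0.15, SE 0.07, and 0.07). Of the Treatment libraries 2 were above the OVX range for Slc4a4 and 2 for Slc1a3. The lower gene was Gfap, the astrocyte filament protein, with 36817, 37685, 32368, 36802 and 36396 against 34837 to 49297 (median 41225) (change -0.19, SE 0.08) and replicate 5 alone below the range.

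Choroid plexus and thalamic carry-over differed between libraries more than between groups. Ttr, transthyretin, the main secreted protein of the choroid plexus, had 337, 281, 12498, 71606 and 1019 in Treatment libraries and 565 to 73531 (median 10032) in OVX libraries. Replicates 1 and 2 were the lowest of the 12, and the change of -1.48 (SE 1.66) was 0.51 without them. Of 19 choroid plexus genes 1 was higher with all 5 libraries and 18 with replicates 5, 6 and 7, and of 23 thalamic genes 8 and 19. With the choroid plexus score as a covariate the change of Pdk4 was 1.29 and of Sgk1 0.82, and with the thalamic score 1.28 and 0.84.

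Genes outside these lists with the smallest p included several of known function. Tmem252, a small membrane protein, had 71.8, 66.3, 96.0, 118 and 92.7 against 38.7 to 65.2 (median 51.8), without overlap (change 0.80, SE 0.17, and 1.02 with replicates 5, 6 and 7). Slc10a6, a carrier of sulfated steroids, had 75.2, 56.7, 73.2, 100.1 and 77.7 against 39.1 to 63.0 (median 48.3). Replicate 2 alone was within its OVX range, and the change was 0.66 (SE 0.15). Rnf144b, a ubiquitin ligase, had 1969, 1678, 1621, 1797 and 1717 against 1309 to 1615 (median 1464), without overlap by a narrow margin (change 0.25, SE 0.05). Gpr63, an orphan receptor of neurons, had a change of 0.43 (SE 0.09) with 4 of 5 above the range, and Stk17b, a kinase related to death-associated kinases, 0.37 (SE 0.09) with 2 above.

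Genes on the lower side with the smallest p included chromatin and signalling proteins. Ino80b, a subunit of the INO80 chromatin remodeller, had 567, 601, 600.2, 521 and 491 against 613 to 775 (median 657), with all 5 below (change -0.28, SE 0.06). Sirt7, a nuclear deacetylase of the sirtuin family, had 766, 702, 738, 748 and 753 against 789 to 932 (median 828). All 5 were also below all SHAM libraries, the lowest of which had 788, and the change was -0.21 (SE 0.05). Map3k12, the kinase DLK of axon injury signalling, had 5651, 5847, 5665, 5722 and 5826 against 6052 to 6565 (median 6155), apart with a change of -0.11 (SE 0.03). Fam57b, a ceramide synthesis protein, had 1539, 1681, 1782, 1619.9 and 1503 against 1769 to 2188 (median 2037), with replicate 5 alone inside the range (change -0.31, SE 0.07). Arl11, a small GTPase of macrophages, had 107, 75.7, 66.8, 83.4 and 64.3 against 94.7 to 133 (median 117), with 4 of 5 below (change -0.55, SE 0.14). Apcdd1, an inhibitor of Wnt signalling, and Pias4, a SUMO ligase, had changes of -0.32 (SE 0.08) and -0.20 (SE 0.05).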

How the data were processed

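Total RNA of frozen hippocampus was sequenced. The deposited table holds normalised counts, a signal per gene and library made by the authors with kallisto 0.43 and DESeq2 (no version given), per the submitters' processing notes. The sources used here do not give the genome build or annotation. Values were not whole and whole reads could not be recovered, so depth was estimated from the value of 1 read. Of 20318 features, 2378 had no symbol.

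Groups and replicate numbers came from the labels, and 0 value columns were left unmapped. Values were taken as log2(normalised count + 1), where 1 is the pseudocount. Genes with a mean of at least 10 over all 24 libraries, 16119 in number, went into 1 limma 3.58.1 fit of 4 groups (R 4.3.3, trended empirical Bayes, contrast Treatment minus OVX) with Benjamini-Hochberg adjustment at 0.05. The fit was tested on simulated data. Figures used Python 3.11.15 and matplotlib 3.10.9.

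The comparison and the 35 gene lists (800 of 853 genes in the table) were chosen with earlier results of these data known, and lists got no test. Named genes had a mean of at least 50 and were the 12 smallest p and 6 largest changes each way at an unadjusted p under 0.05, up to 4 per list, and fixed genes such as Esr1 and Ttr. The text gives those of known function. Ddit4, Nr3c2, Insig1, Stard4, Abca1, Sqle, Tm7sf2, Nfkbia, Plin4, Klf9, Lcn2, Farp2 and Prl were named outside this rule after their values were seen. Same-numbered libraries did not deviate together, so numbers were not taken to pair them.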

Additional observations from a re-analysis of the deposited data

Results flagged for a closer look

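For 74 genes of the text the highest and the lowest library of each group were compared with the rest by Dixon's criterion at the 95% level, over 148 groups of values, of which 5 held a library that stood apart. Chance alone is expected to do so in about 1 of 20 groups. Grin2b was at 4272 in Treatment replicate 1, against 2188 to 2771 in the other Treatment libraries. Gfap was at 32368 in Treatment replicate 5, against 36396 to 37685. Gal3st1 was at 422 in Treatment replicate 6, against 246 to 271. Ttr was at 71606 in Treatment replicate 6, against 281 to 12498. Plin4 was at 413 in OVX replicate 1, against 212 to 294 in the other OVX libraries. No cause of these values was tested.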

How the results depend on the processing

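Under all alternatives run, limma called 0 genes, and the smallest Benjamini-Hochberg adjusted p ranged from 0.0770 (without OVX replicate 4) to 0.726 (without Treatment replicate 7). Genes at an unadjusted p under 0.05 numbered 1159, but 736 in a fit of the 12 libraries alone, 767 with library weights, 562 with the library set as a term and 533 with Treatment replicates 5, 6 and 7, and 705 (without Treatment replicate 1) to 1554 (without OVX replicate 4) on leaving out 1 library. Genes with groups apart numbered 48, but 192 with Treatment replicates 5, 6 and 7, 179 without the libraries with a thalamic score of at least 9, and 55 to 154 on leaving out 1 library (over 1.5 times as many without any 1 of the 5 Treatment libraries or OVX replicates 4, 6 or 7), since fewer libraries overlap less often by construction. With the replicate block 946 genes had an unadjusted p under 0.05, 0 were called and the smallest adjusted p was 0.709. Correlations of same-numbered deviations were 0.01, -0.40, -0.04, 0.37 and -0.15, and 0 of 5 pairs correlated best with their own number.

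Several changes reversed, and the cause was not tested. Fkbp5 was at -0.0477 with the choroid covariate, -0.000226 with the thalamic, -0.0495 with both and -0.0766 with the set term or replicates 5, 6 and 7. Gper1 was at 0.0212 with the choroid covariate, 0.0215 with both and 0.0617 with the set term or those replicates. Pgr was at -0.0178 with library weights and -0.0108 without the 2 libraries with a thalamic score of at least 9. Ttr, at -1.48 with all 5 Treatment libraries, was at 0.507 with the set term or replicates 5, 6 and 7. Leaving out 1 library gave -0.51 to 0.0365 for Esr1, -0.0499 to 0.0756 for Fkbp5 and -0.133 to 0.0476 for Gper1. With replicates 5, 6 and 7 the endothelial median was 0.118, and the medians of 13 of 35 lists changed sign: estrogen receptors and steroid enzymes, pituitary peptides, respiratory, ribosomal, microglial, complement, myelin, oligodendrocyte precursor, neurogenesis, dentate, thalamic, choroid plexus and Alzheimer risk genes. Both covariates together, and leaving out the high thalamic scores, were chosen after seeing the data. Depth is an estimate, so no counting interval was computed.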

Other observations

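Prolactin transcripts (Prl), made mainly in the pituitary, were seen in some libraries at levels below the filter and were not tested. Treatment replicates 1, 2, 5, 6 and 7 had 0, 13.4, 11.6, 5.59 and 1.03 normalised counts, and OVX libraries 0 to 1.05. Of these, 3 were above all OVX libraries, 1 was listed at 0, and SHAM libraries ran up to 6.48. Prevention libraries had 2.77 to 37.2. Of 18 tested genes for pituitary and hypothalamic peptides 7 were higher in Treatment libraries, with a median change of -0.02 and 0 at an unadjusted p under 0.05. With replicates 5, 6 and 7 the direction turned, with 13 of 18 higher and a median of 0.07.

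Genes linked to Alzheimer's disease risk were higher for 13 of 25, with a median of 0.00. At an unadjusted p under 0.05 there were 2 (8%, against 3.09% of all genes), both lower. In replicates 5, 6 and 7 it was 12 of 25, with 2 higher and 1 lower at that p. Cxcr1, a chemokine receptor of neutrophils, had 199, 401, 231, 74.1 and 111 in Treatment and 238 to 431 (median 333) in OVX libraries, with 4 of 5 below the range and replicate 2 within it (change -0.89, SE 0.40). The change was -1.36 with replicates 5, 6 and 7, and -0.59 without Treatment replicate 6.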
